A study of Arabidopsis thaliana with 6 samples.

Results

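A group of 6 genes of the class III peroxidase family were followed on 6 one-colour expression arrays of Arabidopsis thaliana flowers. AT5G64120, AT5G39580 and AT5G47000 gave lower signals in flowers overexpressing miR159a, and AT4G11290, AT5G19880 and AT3G03670 gave higher ones. Each gene was read by its 1 single-gene probe set in the platform annotation, so the 6 genes have 6 of the 22810 probe sets on the array. They belong to a family list of 73 loci, of which 55 had a single-gene probe set. Total RNA came from stage 15 flowers of transgenic plants overexpressing miR159a (3 arrays, lettered a, b and c) and of wild-type Columbia plants (3 arrays, with the same letters). The sources used here do not give the promoter that drives the transgene, the parent accession and number of the transgenic lines, or any pooling of flowers. Nor do they say that arrays of 1 group came from different plants, so every p-value reflects only how far these samples differ among themselves, and that may be technical.

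Class III peroxidases are secreted haem enzymes found only in plants. They use hydrogen peroxide to oxidise phenolic compounds and wall proteins, which cross-links and stiffens the cell wall, and they can also form reactive oxygen species that loosen it. Members of this large family differ in the tissue and the time at which they are expressed, and flowers use them in anthers, pollen, pistils and the vascular tissue of the stalk. The microRNA miR159a pairs with messages for transcription factors of the MYB family, and the comparison asks which transcripts differ in flowers when it is overexpressed.

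The values are array signals on a linear scale, already scaled by the authors to a mean near 200.0 per array after the lowest and highest 2% were left out. Fold changes are differences of log2(signal + 16), overexpressor minus wild type, a scale on which changes of dim probe sets come out too small. In each group array a lay away from arrays b and c along the second principal component (29.7% of the variance), so values are also given by letter and without both of these arrays. On overexpressor array a the control for 25S ribosomal RNA read 3079.6, against 11.1 to 51.2 on the other 5 arrays. The RNA is from whole flowers, in which fewer cells of a type and less RNA per cell cannot be told apart.

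The 6 genes were chosen by their signals in these same groups, 3 for being lower and 3 for being higher in the overexpressor. Their fold changes, and their calls under each setting below, therefore describe them and carry no test. All 6 lie among the probe sets past an adjusted p of 0.05 in the limma fit over 17059 probe sets, a share of 2.30% of all tested. Of the 16 alternative settings, AT5G64120 stayed past that threshold in all 16, AT5G39580 in all 15 that tested it, AT4G11290 and AT5G19880 in 15 each (not without wild-type array b, 0.0637 for both), and AT5G47000 and AT3G03670 in 11 each. AT5G47000 missed it with a pseudocount of 1 (0.0578), without overexpressor array a (0.0595), wild-type array a (0.0544) or wild-type array b (0.0854), and without both arrays lettered a (0.124). AT3G03670 missed it without overexpressor array a (0.0639), b (0.0568) or c (0.0822), without wild-type array b (0.0978) and without both arrays lettered a (0.0521). All 6 passed the filter that left out the dimmest 25% of probe sets.

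AT5G64120, listed as PRX71 among its RefSeq synonyms, encodes a wall peroxidase that has been linked to restrained cell expansion and to the response to wall damage. Its signal was 68.6, 46.5 and 49.2 on overexpressor arrays a, b and c, against 446.9, 498.0 and 609.2 on wild-type arrays a, b and c. The groups stood far apart, and the lowest wild-type array was 6.51 times the highest overexpressor array. The mean was 54.8 ± 12.1 in the overexpressor and 518 ± 83.0 in wild type (SD, n = 3 each), so 10.6% of the wild-type signal was left. The log2 fold change was -2.92 (SE 0.19). Taken letter by letter, it was -2.45 for a, -3.04 for b and -3.26 for c.

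AT5G39580 was lowered in nearly the same proportion. Its signal was 10.4, 18.4 and 17.2 on overexpressor arrays a, b and c, against 148.1, 106.1 and 178.7 on the wild-type arrays. The overexpressor arrays all lay near the pseudocount of 16, and the lowest wild-type array was 5.77 times the highest of them. The mean was 15.3 ± 4.31 in the overexpressor and 144 ± 36.4 in wild type (SD, n = 3 each), which again left 10.6% of the wild-type signal. The log2 fold change was -2.34 (SE 0.21), and it was -3.16 with a pseudocount of 1 and -1.38 with a pseudocount of 64.

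AT5G47000 had the largest fall of the 3 and by far the widest spread. Its signal was 63.1, 196.6 and 13 on overexpressor arrays a, b and c, against 2360.8, 1333.7 and 994.1 on the wild-type arrays. The groups did not overlap, but the highest overexpressor array was 15.1 times the lowest, against 2.37 times in wild type. The mean was 90.9 ± 94.9 in the overexpressor and 1563 ± 712 in wild type (SD, n = 3 each), so 5.82% of the wild-type signal was left. On the log2 scale the change was -4.23 (SE 0.66), and letter by letter it was -4.91 for a, -2.67 for b and -5.12 for c.

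AT4G11290 had the largest rise. Its signal was 443.7, 889.5 and 834.6 on overexpressor arrays a, b and c, against 112.9, 160.1 and 113.6 on the wild-type arrays. The lowest overexpressor array, a, was 2.77 times the highest wild-type array. The mean was 723 ± 243 in the overexpressor and 129 ± 27.1 in wild type (SD, n = 3 each), a ratio of 5.61. This gave a log2 fold change of 2.30 (SE 0.28), and without both arrays lettered a it was 2.54.

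AT5G19880 was raised to a level that was nearly the same on all overexpressor arrays. Its signal was 476.2, 544.9 and 554.7 on overexpressor arrays a, b and c, against 167.9, 82.1 and 94.9 on the wild-type arrays. The highest overexpressor array was 1.16 times the lowest, against 2.05 times in wild type, where array a stood highest. The mean was 525 ± 42.8 in the overexpressor and 115 ± 46.3 in wild type (SD, n = 3 each), a ratio of 4.57. The log2 fold change was 2.10 (SE 0.24), which is within 1 SE of that of AT4G11290, and it was 1.42, 2.52 and 2.36 between the arrays lettered a, b and c.

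AT3G03670 had the smallest change of the 6. Its signal was 288.9, 313.0 and 276.8 on overexpressor arrays a, b and c, against 148.8, 114.2 and 81.1 on the wild-type arrays. The groups came closest here, with the lowest overexpressor array at 1.86 times the highest wild-type array. The mean was 293 ± 18.4 in the overexpressor and 115 ± 33.9 in wild type (SD, n = 3 each), a ratio of 2.55. Its log2 fold change was 1.27 (SE 0.21), and it was 0.89, 1.34 and 1.59 between the arrays lettered a, b and c.

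**Figure D1:**
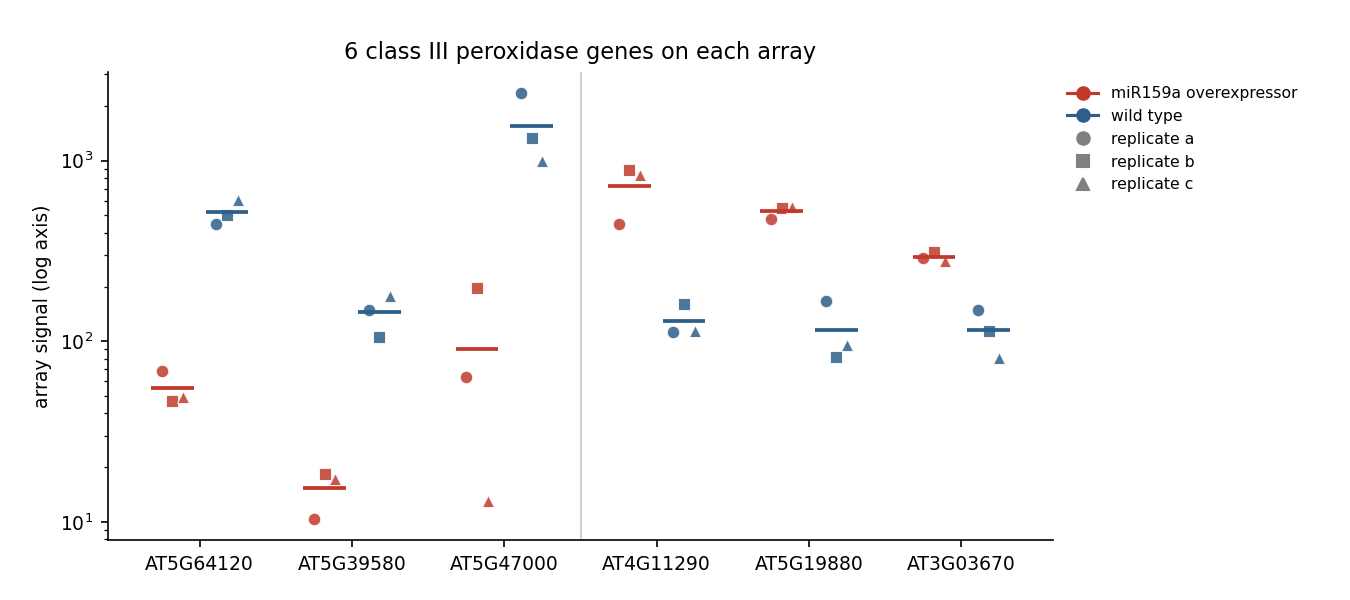
Array signal (log axis) of the 6 class III peroxidase genes, with 1 point per array, marker shape for the replicate letter and a bar at the mean of 3 arrays, overexpressor left of wild type for each gene. The 3 genes on the left are lower and the 3 on the right higher on every overexpressor array, and AT5G47000 spans 13 to 196.6 in the overexpressor.

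How evenly a gene read within a group differed among the 6. The coefficient of variation between overexpressor arrays was 22.0% for AT5G64120, 28.1% for AT5G39580 and 104% for AT5G47000, against 16%, 25.3% and 45.5% between wild-type arrays. For the raised genes it was 33.6% for AT4G11290, 8.14% for AT5G19880 and 6.29% for AT3G03670 between overexpressor arrays, against 21.0%, 40.3% and 29.5% between wild-type arrays. By this measure 4 of the 6 genes varied more in the overexpressor, and AT5G19880 and AT3G03670 varied less there. On the scale of log2(signal + 16) AT5G39580 also varied less in the overexpressor, with an SD of 0.21 against 0.34 in wild type. Its overexpressor signals lie near the added 16, which narrows their spread on that scale. Without it, the highest AT5G39580 array was 1.77 times the lowest in the overexpressor and 1.68 times in wild type. With 3 arrays a group these spreads are descriptions. Without both arrays lettered a the log2 fold changes were -3.15 for AT5G64120, -2.19 for AT5G39580, -3.89 for AT5G47000, 2.44 for AT5G19880 and 1.46 for AT3G03670.

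Most of the rest of the family did not pass the test. Of the 49 class III peroxidase genes outside the 6 with a single-gene probe set, 25 passed the filter on dim signals. Of these 25, 1 fell (4.0%), 0 rose and 24 did not pass the limma test at an adjusted p of 0.05, against 2.17% lower and 0.135% higher among all tested probe sets. The share lower rests on 1 gene and is near that of all tested probe sets. At an unadjusted p of 0.05 limma placed 5 of the 25 lower (20.0%) and 2 higher (8.0%), against 5.73% and 3.05% of all tested probe sets. The median log2 fold change of the 25 was -0.28, against 0.04 over all tested probe sets, and 17 of the 25 lay within 0.5 of 0. Below 0 lay 17 of the 25 (68%), against 41.7% of all tested probe sets. In the whole family 4 of 31 tested genes were lower and 3 higher, and 6 of these 7 are the genes chosen for it. Without wild-type array b, 2 were lower and 0 higher, against 30 lower and 0 higher among all tested probe sets.

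AT4G36430 is the 1 further gene that fell. Its signal was 40.2, 38.7 and 37.2 on overexpressor arrays a, b and c, against 92.9, 91.6 and 97.6 on the wild-type arrays. Both groups were tight, at 38.7 ± 1.5 in the overexpressor and 94.0 ± 3.16 in wild type (SD, n = 3 each). The log2 fold change was -1.01 (SE 0.14, limma adjusted p = 0.0121). The adjusted p was 0.0561 without overexpressor array c, 0.0688 without wild-type array b and 0.0603 without both arrays lettered a, with log2 fold changes of -0.99, -1.02 and -1.04.

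Besides AT4G36430, the 5 tested genes nearest to the 6 in size of change had log2 fold changes of -1.0 (PRX52), -0.97 (AT1G24110), 0.92 (AT1G44970), -0.81 (AT2G37130) and -0.73 (AT5G64110), so 4 of these 5 were negative. None of the 5 passed the limma test at an adjusted p of 0.05. AT1G24110 had a signal of 18.2 ± 1.21 in the overexpressor and 52.8 ± 18.6 in wild type (SD, n = 3 each), a log2 fold change of -0.97 (limma adjusted p = 0.0673, or 0.0352 with a replicate block). PRX52 (AT5G05340), a peroxidase with a part in making lignin in the stem, had 79.3 ± 37.8 in the overexpressor and 168 ± 55.3 in wild type, a log2 fold change of -1.0 (limma adjusted p = 0.364). AT2G37130 had 33.6, 116.9 and 52.8 on overexpressor arrays a, b and c, against 35.4, 230.8 and 178.5 on the wild-type arrays, and these groups overlap (limma adjusted p = 0.851). In the other direction, AT1G44970 had signals of 1263.0, 2030.1 and 2343.3 on overexpressor arrays a, b and c, against 953.4, 802.4 and 1123.8 on the wild-type arrays. These groups do not overlap, but the log2 fold change of 0.92 (SE 0.25) did not pass the limma test (adjusted p = 0.174). It did pass without overexpressor array a (0.0467) and with array weights (0.0394). The next largest positive value, 0.57, was that of PRXR1 (AT4G21960, limma adjusted p = 0.315).

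Groups without overlap were counted as well. Of the 25 tested genes outside the 6, 6 had all overexpressor arrays below all wild-type arrays (24%), against 7.20% of all tested probe sets. Those 6 were AT4G36430, PRX52, AT1G24110, AT5G64110, AT5G58390 and AT4G17690. The opposite pattern was seen in 2 of the 25 (8.0%), AT1G44970 and PRXR1, against 7.46% of all tested probe sets. The share higher was thus near the background. Of the 24 genes below the filter, 12 never exceeded the pseudocount of 16 on any array, and the highest signal of the 24 was 35.3. Since the filter goes by the mean of all 6 arrays, a fall can itself take a gene below it.

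**Figure D2:**
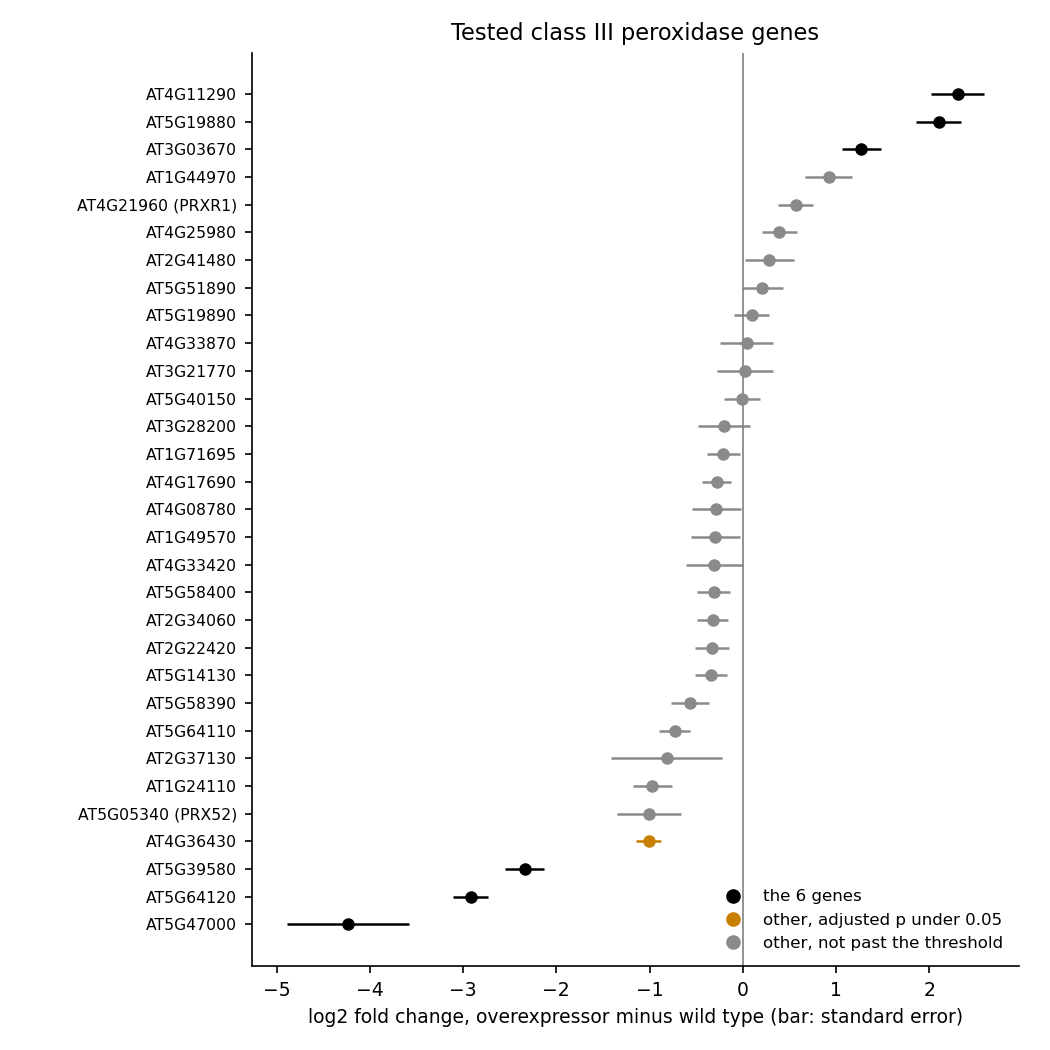
Log2 fold change, overexpressor minus wild type, with its standard error for the 31 tested class III peroxidase genes, the 6 chosen genes in black and AT4G36430 in orange. The genes in grey, which did not pass an adjusted p of 0.05, lie between -1.0 and 0.92.

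AT5G64120 stands in a row of 3 peroxidase genes on chromosome 5. In the TAIR10.1 gene order of RefSeq it is next to AT5G64110, which is next to AT5G64100, with 0 protein-coding genes between them. AT5G64110 had 9.3, 17.1 and 15.0 on overexpressor arrays a, b and c, against 29.2, 32.4 and 38.1 on the wild-type arrays. Its log2 fold change was -0.73 (SE 0.17, limma adjusted p = 0.0859, or 0.0343 with a replicate block). AT5G64100 had 8.6, 9.9 and 9.2 on the overexpressor arrays, against 23.8, 24.3 and 29.9 on the wild-type arrays, and lay below the filter. With no filter it was called lower (limma adjusted p = 0.0473). All 3 genes of the row were therefore lower on every overexpressor array, as 7.20% of all tested probe sets were. Of the row, AT5G64120 was itself chosen for being lower. In wild type all 3 genes were highest on array c and lowest on array a, and the share of all probe sets with that order was not counted. The mean overexpressor signal was 10.6% of wild type for AT5G64120, 41.5% for AT5G64110 and 35.5% for AT5G64100. Probe sets of close copies can read each other's transcripts, and whether these do was not tested.

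The raised gene AT5G19880 also has a peroxidase gene beside it on chromosome 5, AT5G19890. This neighbour had 12.5, 24.8 and 25.6 on overexpressor arrays a, b and c, against 16.3, 18.8 and 19.4 on the wild-type arrays. The groups overlap, and the log2 fold change was 0.09 (SE 0.19, limma adjusted p = 0.977), against 2.10 for AT5G19880.

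**Figure D3:**
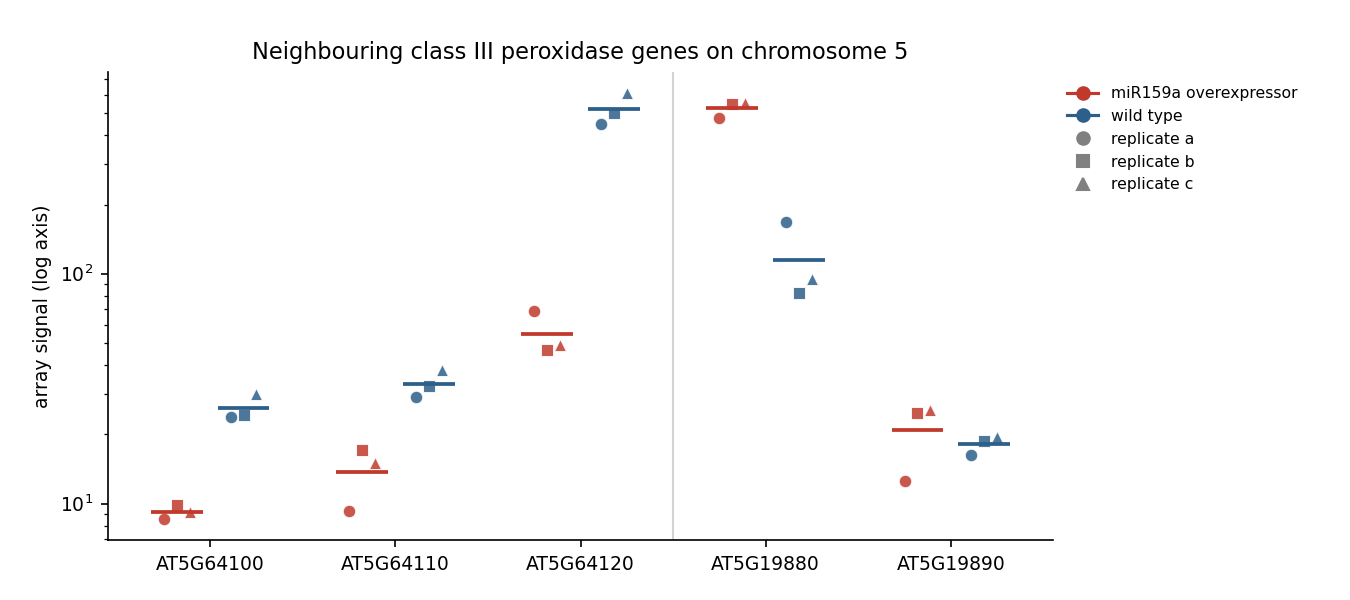
Array signal (log axis) of 5 class III peroxidase genes on chromosome 5, with 1 point per array and a bar at the mean of 3 arrays, overexpressor left of wild type. AT5G64100, AT5G64110 and AT5G64120 are lower on every overexpressor array, and AT5G19880 is higher while its neighbour AT5G19890 overlaps between the groups.

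The wild-type arrays ranked alike for AT5G47000 and for transcripts of mature pollen. Its wild-type signals ran from array a over b to c, from highest to lowest. Those of all 12 mature pollen markers with a single-gene probe set (of 19 listed) did so too. In the overexpressor AT5G47000 was highest on array b, as were 9 of the 12. Neither order is particular to AT5G47000 and these markers. The raised gene AT3G03670 had the same order in both groups, and the 3 defence and wound markers described below had the same wild-type order. Of the 55 family genes, 8 had this wild-type order and 22 were highest on overexpressor array b. The share over all probe sets was not counted. The signal of AT5G47000 was 4.04%, 12.6% and 0.832% of the wild-type mean on overexpressor arrays a, b and c, and 151%, 85.3% and 63.6% on the wild-type arrays. The median of the 12 markers was 5.49%, 20.9% and 5.53% on the overexpressor arrays, and 149%, 88.8% and 61.9% on the wild-type arrays. The marker list was chosen with earlier results of these data known, so its counts are descriptions and no independent support. Of the 12, 9 were lower and 0 higher in the limma fit, against 2.17% and 0.135% of all tested probe sets. Without wild-type array b 0 were called. The count was also 0 without both arrays lettered a, 2 without overexpressor array a, 2 without overexpressor array c and 3 without wild-type array a. Among all tested probe sets the number lower went from 370 to 30 without wild-type array b and to 84 without both arrays lettered a. It was 196 without overexpressor array a, 166 without overexpressor array c and 232 without wild-type array a. The 9 markers called with all arrays were AT1G49490, AT3G19020, ANX2, AT4G39110, AT2G15880, AT4G33970, AT2G21480, ACT12 and ANX1, with log2 fold changes from -3.67 for AT1G49490 to -1.69 for ANX1. The other 3 were not called, AGL66 at -0.91, AGL104 at -0.77 and AGL65 at -0.12. AGL65 overlapped between the groups, with means of 60.2 in the overexpressor and 68.1 in wild type (limma adjusted p = 0.966). The summed signal of the 12 was 158.4 to 527.7 in the overexpressor and 1544.1 to 3845.5 in wild type, and 0 of the 12 had a signal of 0 on any array. Their part in the fall of AT5G47000 was not tested.

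In wild type the other lowered genes were ordered differently, both being highest on array c. In the overexpressor AT5G39580 was highest on array b, as AT5G47000 and 9 of the 12 markers were, and AT5G64120 was highest on array a. The 3 overexpressor signals of AT5G39580 and that of AT5G47000 on array c lie near the pseudocount of 16. The part of pollen in the falls of AT5G64120 and AT5G39580 was not tested either.

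**Figure D4:**
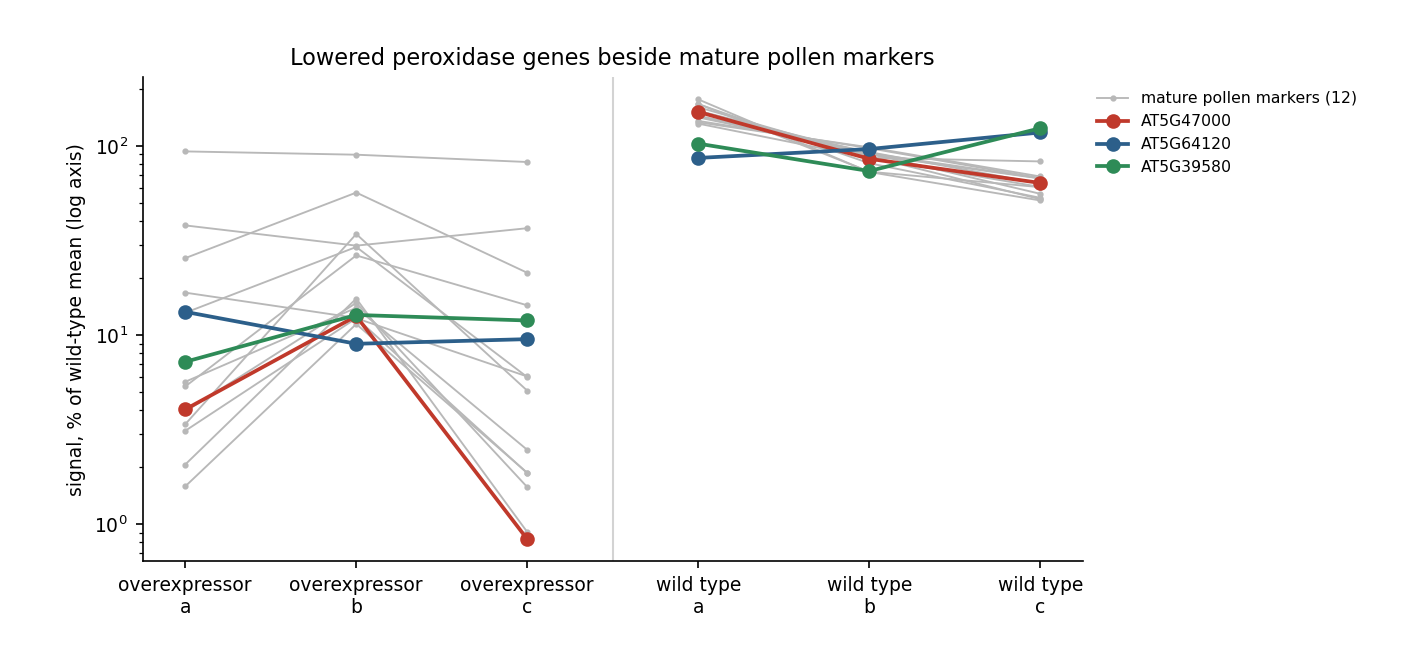
Signal as a percentage of the wild-type mean (log axis) on each array for the 3 lowered peroxidase genes (coloured) and 12 mature pollen markers (grey), with lines joining the arrays of 1 group only to guide the eye. In wild type AT5G47000 is highest on array a and lowest on array c, as all 12 markers are, while AT5G64120 and AT5G39580 are highest on array c, and in the overexpressor AT5G47000 and AT5G39580 are highest on array b.

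For each of the 6 genes the closest patterns over the 6 arrays were sought among 9359 other tested genes by Pearson's r of log2(signal + 16). The arrays fall into 2 groups, so r is high for any gene that separates them, and it is given as a description. AT5G47000 was matched by AT3G05610 and AT5G39880, with r = 0.9998 and r = 0.9997, and 169 genes had r over 0.95. AT5G64120 was matched by AT1G56020 (r = 0.997) and by the peroxidase gene AT4G36430 (r = 0.997), and AT5G39580 by AT2G43610 (r = 0.996) and AT1G06540 (r = 0.992). For these, 37 and 53 genes had r over 0.95. The matches of the lowered genes had smaller changes than the genes themselves. Their log2 fold changes were -4.05 for AT3G05610, -3.64 for AT5G39880, -0.36 for AT1G56020, -1.01 for AT4G36430, -1.81 for AT2G43610 and -2.06 for AT1G06540.

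Among the raised genes, AT4G11290 was matched by AT5G46030 (r = 0.997) and AT2G03280 (r = 0.981). AT5G19880 was matched by GLC, a gene that acts in fertilisation (r = 0.991), and AT1G80960 (r = 0.989). AT3G03670 was matched by AT1G74840 (r = 0.996) and the carboxypeptidase-like gene scpl47 (r = 0.996). The matches of the raised genes, like those of the lowered ones, had smaller changes than the genes themselves. Their log2 fold changes ran from 0.29 for AT2G03280 and AT5G46030 to 0.88 for GLC and 0.92 for scpl47.

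Other enzymes that make or use hydrogen peroxide, or that supply the phenolics of lignin, were read from few genes. The thylakoid and stromal ascorbate peroxidase genes TAPX and SAPX, which remove hydrogen peroxide in chloroplasts, had log2 fold changes of -0.09 (SE 0.21) and -0.0013 (SE 0.19). They are 2 of 25 listed genes of hydrogen peroxide and superoxide enzymes, and 0 of the 2 passed the limma test, adjusted or at an unadjusted p of 0.05. HCT, an enzyme of monolignol synthesis, had a log2 fold change of 0.02 (SE 0.15, limma adjusted p = 0.992).

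CCR2, a cinnamoyl-CoA reductase gene of the same pathway, lay below the filter and was untested. Its signal was 0.8, 1.7 and 1.1 on overexpressor arrays a, b and c, against 60.7, 13 and 54.2 on the wild-type arrays. The groups do not overlap, a separation in this direction that 7.20% of all tested probe sets show, and the overexpressor signals are too dim for a fold to be read. With no filter CCR2 was not called (limma adjusted p = 0.114). The 3 NADPH oxidase genes with a single-gene probe set (of 10 listed) stayed at or below 17.9 on all arrays. The laccase gene LAC16, the only 1 of 17 listed with such a probe set, stayed at or below 2.7. None of these genes was tested, and the other listed genes of both groups were not read.

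Markers of other tissues were read from fewer genes. The 2 tapetum markers (of 10 listed) were dim in both groups, with a summed signal of 8.3 to 14.3 in the overexpressor and 9.5 to 20.0 in wild type. The 4 photosynthesis markers (of 12 listed) summed to 10123 to 14314 in the overexpressor and 7600 to 11268 in wild type. The 5 carpel and ovule markers (of 14 listed) summed to 605.3 to 707.8 in the overexpressor and 495.2 to 594.2 in wild type. Most of each sum came from the gene ALC, at 405.6 to 474.3 in the overexpressor and 309.0 to 396.8 in wild type. Of the 4 tested photosynthesis and the 4 tested carpel and ovule markers 0 passed the limma test, adjusted or at an unadjusted p of 0.05, and the carpel genes ALC and NGA2, with log2 fold changes of 0.32 and 0.37, were higher on every overexpressor array, as 7.46% of all tested probe sets were. The other tested carpel genes, NGA4 at 0.15 and NGA1 at -0.13, overlapped between the groups. The photosynthesis genes LHCB4.2, PSAN and PSBY had log2 fold changes of 0.35, 0.30 and 0.24. Of the 3 defence and wound markers (of 12 listed), summing to 75.2 to 573.8 in the overexpressor and 230.4 to 366.4 in wild type, WRKY53 had 30.7 ± 25.6 in the overexpressor and 120 ± 7.48 in wild type (SD, n = 3 each, limma adjusted p = 0.0596, or 0.0221 with a replicate block). STZ had 217 ± 253 in the overexpressor, with 508.5 on array b, and 155 ± 67.0 in wild type (SD, n = 3 each), a log2 fold change of -0.05 (limma adjusted p = 0.997), and PDF1.2 was dim and untested, with a log2 fold change of 0.10. The part of these tissues in the changes of the 6 peroxidase genes was not tested.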

How the data were processed

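The deposited table gives signal intensities, 1 per probe set and array on a linear scale. The values show that they had been scaled, and the software used upstream is not given in the sources used here. No pair of arrays was identical. Detection calls were not used. Precision is limited by the number of arrays.

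Genes were named from the platform annotation of single-gene probe sets (13513) and the RefSeq gene table of TAIR10.1, to which 13436 matched. The 8794 probe sets without an entry are unnamed here. The array's genome build is not named, so no coordinates are given. The family list was written from general knowledge of the family. The members, lists and tests were chosen with earlier results of these data known.

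Log2(signal + 16) was fitted with limma 3.58.1 in R 4.3.3 (lmFit and eBayes, two-sided, Benjamini-Hochberg over all tested). The 64 control probe sets and the dimmest 25% (5687) were left out, which left 17059, and 370 were lower and 23 higher at an adjusted p under 0.05. The fit was tested on simulated data with independent noise on each array. That simulation lacks the correlation between same-lettered arrays given below, so it does not show how the calls hold under it.

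Genes named were the 6, the rest of the family with called genes first, called genes and up to 3 others of each other list by p, and the 2 closest patterns per gene. The untested CCR2 and LAC16 were named after their values were seen. Over probe sets, deviations from the group means correlated between same-lettered arrays (r = 0.57 for a, r = 0.36 for b, r = 0.38 for c), so the letters were taken as pairs in the fit with the replicate block. Comparisons of protein and promoter sequence were not run here.

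The settings tried besides were other scalings (by quantiles or by the array median), a pseudocount of 1 or 64, all probe sets or only the brighter 50%, eBayes with a trend, weighted arrays, a replicate block, and leaving out each array or both arrays lettered a.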

Additional observations from a re-analysis of the deposited data

Results flagged for a closer look

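A control for 25S ribosomal RNA that enters no comparison read 3079.6 on overexpressor array a, against 29.6 and 51.2 on the other overexpressor arrays and 19.3, 11.1 and 32.6 on wild-type arrays a, b and c.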

How the results depend on the processing

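Directions of the 6 genes and of AT4G36430, AT1G24110, AT5G64110, PRX52, AT5G58390, AT1G44970 and PRXR1 did not reverse under any alternative that gave them a value. The log2 fold change of AT5G64120 was -3.23 with a pseudocount of 1, -2.29 with 64 and -3.15 without both arrays lettered a, that of AT5G39580 -3.16 and -1.38 with pseudocounts of 1 and 64, and that of AT5G19880 1.75 with 64. With 1 array left out, the ranges were -3.05 to -2.80 for AT5G64120, -2.52 to -2.19 for AT5G39580, -4.95 to -3.51 for AT5G47000, 2.13 to 2.61 for AT4G11290, 1.92 to 2.37 for AT5G19880 and 1.07 to 1.46 for AT3G03670. The median of the tested family genes outside the 6 (-0.28 over 25) was -0.15 over the same number with a pseudocount of 64. It was -0.16 over 49 with no filter, -0.10 over 8 with the lowest 50% left out, -0.16 over 28 without both arrays lettered a and -0.35 to -0.16 over 23 to 27 with 1 array left out, and with no filter or the lowest 50% left out the 25 themselves stayed at -0.28. The family held 5 lower genes with no filter, AT5G64100 being added, 2 lower genes with the lowest 50% left out, where fewer genes were tested, and 2 without both arrays lettered a. With 1 array left out it held 2 to 4 lower and 0 to 3 higher. Against 370 lower and 23 higher probe sets, a pseudocount of 1 gave 209 and 13, the lowest 50% left out 180 lower, array weights 39 higher and both arrays lettered a left out 84 and 9, and with 1 array left out 30 to 386 were lower and 0 to 16 higher. The replicate block gave 570 lower and 71 higher probe sets and took AT1G24110, AT5G64110 and WRKY53, 1 defence and wound marker, past the threshold, and it changed no other call of the family genes or lists followed. Array weights took AT5G64110 (adjusted p = 0.0486), AT1G44970 and 1 defence and wound marker past it, and 0 to 1 such marker passed with 1 array left out. Of the 12 mature pollen markers 3 were called with a pseudocount of 1, 4 with no filter, 4 with the lowest 50% left out, 0 without both arrays lettered a and 0 to 8 with 1 array left out. Apart from the smaller numbers of arrays or genes, the cause was not tested. A gene has at most 1 single-gene probe set in these lists, so averaging probe sets was not run. Signals near the pseudocount limit the falls that can be read.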
